A study of Mus musculus with 12 samples.

Results

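Chemokine and interleukin genes and their receptors were examined in whole blood of Pik3cg-/- and wild type (WT) mice. They were chosen by name: every probe annotated with a symbol that begins with Ccl, Ccr, Cxcl, Cxcr or Il and a digit, except for Ccl5, Ccr2, Cxcr2, Il7r and Il2rg. This gave 195 of 45281 probes on the array and 123 of 19057 annotated genes, and 20 of these probes, for 17 genes, were detected. A probe was called detected when the scanner's detection p-value, which sets its signal against that of control beads with no target, was under 0.01 on at least 3 of 12 arrays. The naming rule uses no measured difference between the genotypes.

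The arrays compared transcripts in blood with and without the catalytic subunit p110gamma of phosphoinositide 3-kinase, encoded by Pik3cg. In the paper, a study of open chromatin at trait loci, they served to learn more about PIK3CG in platelets. Blood was taken from 3 Pik3cg-/- and 3 WT female mice aged 13 to 16 weeks, all on the C57BL/6J background, and the RNA of each mouse was labelled in duplicate and hybridized to 2 Illumina MouseWG-6 v2 arrays. The Pik3cg-/- mice carry a germline targeted allele from strain 129, which was crossed back to C57BL/6J Jax and then kept as a closed colony, and the WT mice are not described as littermates. The letters A to C are used here only to name the mice of a genotype, and no pairing by letter is stated.

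Chemokines are small secreted proteins that bind receptors coupled to G proteins and direct the migration of leukocytes. Their receptors release G protein beta-gamma subunits, and p110gamma is a phosphoinositide 3-kinase that these subunits switch on in blood cells. Interleukins are secreted signals that act mostly on leukocytes, many of them through receptors that use JAK kinases and STAT factors. Their genes are largely silent in resting blood cells and are transcribed after stimulation, often through NF-kappa B, whereas many of the receptors are carried at rest.

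The plot of genes by role shows how many of each family were detected, and the shares were not tested against each other. Of 12 CXC chemokine genes with 22 probes none was detected, and of 21 CC chemokine genes 3 were (Ccl6, Ccl9 and Ccl11). Of 5 CXC receptor genes 2 were detected (Cxcr4 and Cxcr5), and of 9 CC receptor genes 1 was (Ccr7). Among interleukins 4 of 38 genes were detected (Il1b, Il13, Il15 and Il16), and among interleukin receptors and binding proteins 6 of 37 (Il10ra, Il10rb, Il18bp, Il18r1, Il20ra and Il27ra). The remaining detected gene, Il4i1, entered by its symbol alone: it encodes an amino acid oxidase induced by interleukin 4. In all, 10.3% of the probes of these families were detected, against 12.1% (5498) of all probes on the array. Genes set aside by the naming rule are outside these shares, although Ccl5, Cxcr2 and Il7r among them were detected. The shares thus do not describe the whole families in blood.

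**Figure D1:**
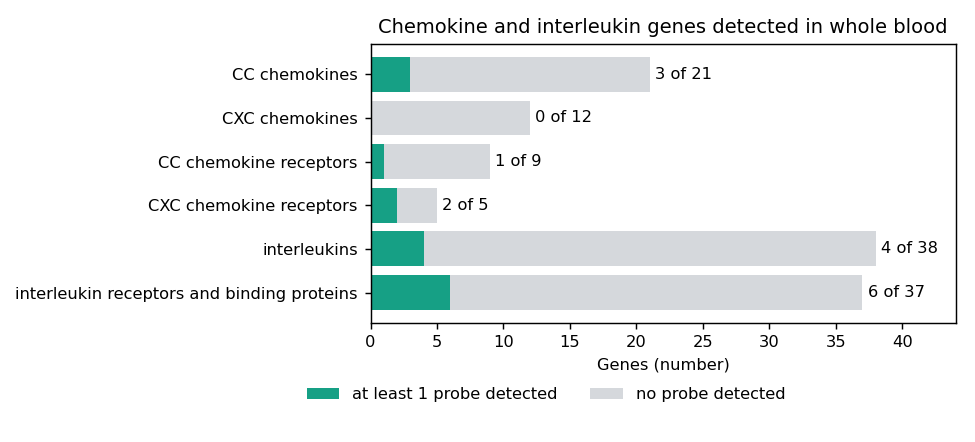
Number of genes (horizontal axis) in each family (vertical axis), with detected genes in one colour and genes without a detected probe in another. The CXC chemokine bar holds 12 genes and no detected one, whereas 6 of 37 interleukin receptor and binding protein genes were detected.

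The signals that were not seen include many of the best known inflammatory mediators. The detection p of their probes never fell under the threshold: the lowest of 12 arrays was 0.228 for the monocyte attractant Ccl2, 0.146 for the macrophage inflammatory protein Ccl3 and 0.635 for the neutrophil attractant Cxcl1. For interleukins the lowest was 0.132 for Il6, 0.163 for the T cell growth factor Il2, 0.307 for the anti-inflammatory Il10, 0.0684 for the eosinophil growth factor Il5 and 0.0983 for Il17a. Cxcr3, a receptor of effector T cells, came nearer with a lowest detection p of 0.0139. For these probes the arrays give no level, only that the signal was not told apart from background, and no difference between genotypes could be measured.

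The number of detected probes depended on the threshold: it was 20 as set, 16 with detection on at least 6 arrays and 30 with a detection p under 0.05. A probe of the IL-27 receptor gene Il27ra was detected on 2 Pik3cg-/- arrays and 1 WT array, and Il4i1 on 1 Pik3cg-/- array and 2 WT arrays, which placed both just inside it. Just outside it were 6 probes seen on a single array: those for Il18rap, Il2rb and Il4 on a Pik3cg-/- array, and those for Ccl4, Il1rn and Il22ra1 on a WT array. No probe was detected on 2 arrays, and 169 probes were detected on none.

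The detected and the undetected genes can be set side by side by their promoters, since several of these families are textbook targets of NF-kappa B. RefSeq promoter sequences of GRCm38.p6 were available for 93 of the 123 genes, and the 250 bases before each start were searched on both strands. The kappa B motif searched was GGG, then any 3 bases, then TTCC. It was found before 18 of 93 genes of these families (19.4%), and before 1434 of 27025 mouse genes (5.31%). Among the genes with a detected probe 2 of 10 held it (20%), and among those without 16 of 83 (19.3%). Only 10 of the 17 detected genes had a sequence, too few to tell whether the shares are alike. The motif overlaps its own reverse in the genes printed here. The windows show a kappa B match, in capitals, with 25 bases on each side, 5′ to 3′ on the strand of the gene: Cxcl1 (chr5:90891149-90891208, plus strand), Cxcl2 (chr5:90903777-90903836, plus strand) and Cxcl3 (chr5:90786003-90786062, plus strand) were not detected in any sample, and Il16 (chr7:83655510-83655569, minus strand) was detected in all of them by 1 of its 3 probes.
Cxcl1: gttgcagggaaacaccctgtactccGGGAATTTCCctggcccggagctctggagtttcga
Cxcl2: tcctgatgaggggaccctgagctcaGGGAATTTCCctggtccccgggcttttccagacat
Cxcl3: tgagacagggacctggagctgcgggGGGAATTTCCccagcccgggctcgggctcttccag
Il16: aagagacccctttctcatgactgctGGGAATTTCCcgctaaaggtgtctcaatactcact

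All 4 windows hold the same 10 letters. A match of letters is a description and not a bound site.

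A TATA box sets the start of transcription in many strongly inducible genes. The letters TATAAA were found in the same 250 bases of 4 of 10 detected genes (40%, namely Ccl9, Cxcr4, Il13 and Il1b), of 18 of 83 undetected genes (21.7%) and of 3872 of 27025 mouse genes (14.3%). The box is printed in capitals for Il1b (chr2:129371140-129371195, minus strand) and Cxcr4 (chr1:128592300-128592354, minus strand), an interleukin and a receptor that were detected on all 12 arrays. In both it lies close upstream of the start, whereas the nearest match of Ccl9 ended at -87 relative to the start. With sequences for only 10 detected genes, the data are too few to tell whether the shares differ.
Il1b: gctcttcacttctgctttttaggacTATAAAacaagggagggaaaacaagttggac
Cxcr4: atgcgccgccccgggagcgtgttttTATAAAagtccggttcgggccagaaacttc

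Several of these genes lie beside each other. Of 122 genes placed in the RefSeq order of protein-coding genes, 56 had another gene of the families as a direct neighbour, as did 7 of the 17 detected ones. Ccl9 and Ccl6 are adjacent and both were detected on every array, while Ccl3, the next gene on the far side of Ccl6, was detected on none. Il1b was detected on every array and its neighbour Il1a on none. Cxcl1, Cxcl2, Cxcl3 and Cxcl15 stand in a row and were all undetected, next to Pf4, which encodes a CXC chemokine stored in platelets under an older name and was detected.

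The detected transcripts were mostly the same in both genotypes. Probes for 8 genes were found on all 12 arrays: Ccl6, Ccl9, Ccr7, Cxcr4, Cxcr5, Il16, Il1b and Il27ra. Of the 20 probes, 10 were detected on all 6 Pik3cg-/- arrays and 13 on all 6 WT arrays. A single Pik3cg-/- array showed between 13 and 18 of them and a single WT array between 15 and 18. Over the whole array, a Pik3cg-/- array had 3558 to 5511 detected probes and a WT array 4648 to 4995, so the Pik3cg-/- arrays varied more in sensitivity. Il15, which sustains NK cells and memory T cells, was detected on 0 of 6 Pik3cg-/- arrays and on 5 of 6 WT arrays. It had the most uneven detection, but its WT level was too near the lowest detectable signal to give a fold difference, and limma's adjusted p was 0.360.

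**Figure D2:**
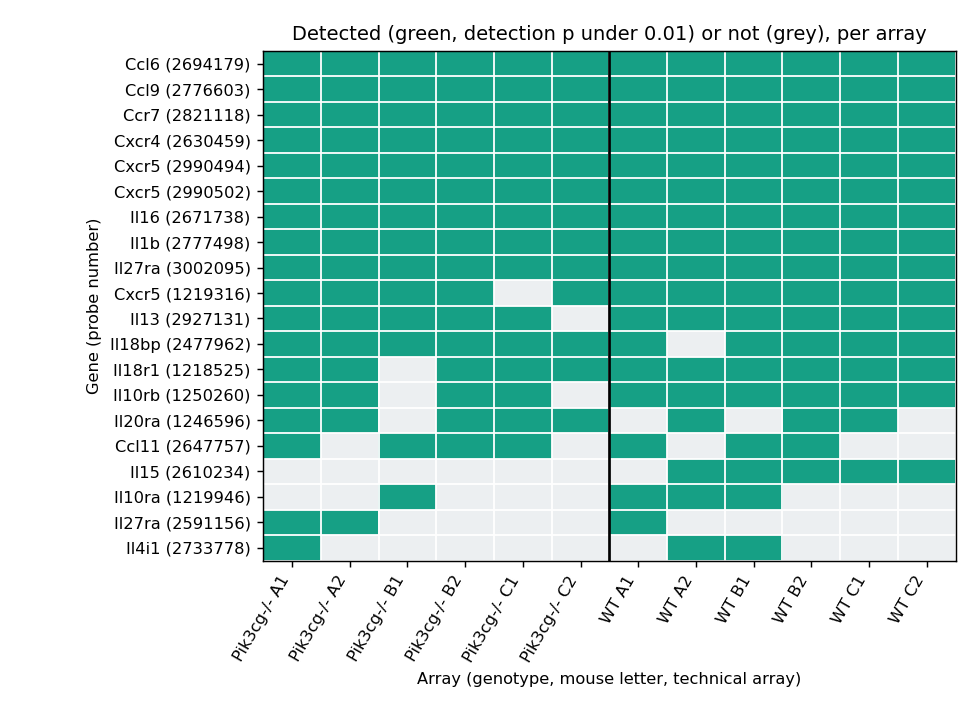
Detection of the 20 probes (vertical axis, gene and probe number) on each of the 12 arrays (horizontal axis, genotype, mouse letter and technical array), with detected cells coloured and undetected cells grey. Il15 is grey on all 6 Pik3cg-/- arrays and coloured on 5 of 6 WT arrays, while probes of 8 genes are coloured throughout.

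No gene of these families passed the test between genotypes. Signals were normalized to log2 intensity, averaged over the 2 arrays of each mouse and compared by limma, and the Benjamini-Hochberg adjustment of p took in all 5498 detected probes. At an adjusted p under 0.05, 0 of 20 probes were called, where 2.73% of all detected probes were called (150 probes). The adjusted p of the 20 probes lay between 0.0748 and 0.989. At an unadjusted p under 0.05 there were 3 of 20 (15%), against 21% of all probes. The 3 Pik3cg-/- mice and the 3 WT mice did not overlap for 6 of 20 probes (30%), against 27.8% of all probes, and 2 of 20 (10%) differed at least 1.5-fold, against 14.8%. These shares are close to or below those of the array as a whole.

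The size of a difference that the data allow can be read from the intervals. For 16 of 20 probes the 95% interval of the log2 fold change (Pik3cg-/- minus WT) lay within 2-fold in either direction, and 3 intervals left out 0. There were 11 probes with a higher mean in Pik3cg-/- blood and 9 with a lower one. Their median log2 fold change was 0.03, against -0.02 for all detected probes. The median standard error was 0.21 for these probes and 0.20 for all. With 3 mice a genotype, changes under 2-fold in single genes were thus not always detectable.

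**Figure D3:**
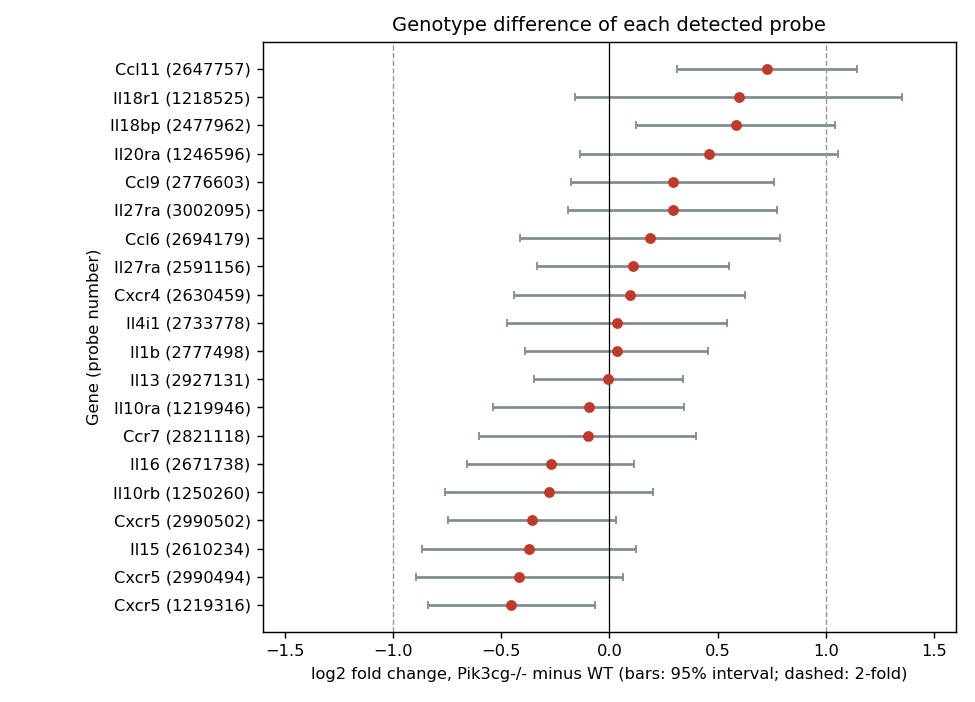
Log2 fold change of each detected probe, Pik3cg-/- minus WT (horizontal axis), with its 95% interval from limma (bars), by gene and probe number (vertical axis). Dashed lines mark 2-fold, and 3 of 20 intervals leave out 0.

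The largest log2 fold change of the 20 probes was that of Ccl11, which encodes eotaxin, an attractant of eosinophils. Its log2 intensity was 7.65, 7.98 and 7.64 in Pik3cg-/- mice A to C, against 7.09, 7.20 and 6.79 in WT mice A to C. In the mean of its 2 arrays, every Pik3cg-/- mouse was above every WT mouse. On technical array 2 alone, Pik3cg-/- mouse A (6.93) was below WT mice A (6.95) and B (7.14). The log2 fold change was 0.98 with technical array 1 only and 0.48 with technical array 2 only. With both arrays the log2 fold change was 0.73 (SE 0.18, 95% interval 0.31 to 1.15) with a limma adjusted p of 0.0748, which missed the threshold. The signal was dim: it was detected on 4 of 6 Pik3cg-/- arrays and 3 of 6 WT arrays, and the SD between the duplicate arrays of a mouse was 0.53, the highest of the 20 probes. A second Ccl11 probe was not detected. Of 10 listed marker genes of eosinophils and basophils, the cells that carry the eotaxin receptor, 8 had an annotated probe and none of these was detected.

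Ccl6 and Ccl9 are neighbouring CC chemokine genes of mice that are expressed by myeloid cells. Ccl6 stood at 8.03, 7.69 and 8.16 in the Pik3cg-/- mice, against 8.35, 7.44 and 7.52 in the WT mice. Ccl9 stood at 9.30, 9.23 and 9.28 in the Pik3cg-/- mice, against 9.36, 8.94 and 8.63 in the WT mice. In both cases WT mouse A was the highest of all 6 mice, and the genotypes overlapped. The log2 fold change was 0.19 (95% interval -0.41 to 0.79) for Ccl6 and 0.29 (95% interval -0.18 to 0.76) for Ccl9. Leaving out single mice gave 0.024 (without WT mouse B) to 0.48 (without WT mouse A) for Ccl6, and 0.12 (without WT mouse C) to 0.49 (without WT mouse A) for Ccl9. WT mouse A was also highest for monocyte markers. Of 7 such genes with an annotated probe 6 were detected, and their median deviation from the WT mean was -0.60, -0.90 and -0.61 in Pik3cg-/- mice A to C, against 0.56, -0.04 and -0.52 in WT mice A to C. Within that list 1 gene was called, Ms4a6d, a membrane gene of myeloid cells, which was at least 1.17-fold lower in Pik3cg-/- mice, where no array detected it, than in WT mice (limma adjusted p = 0.0322). The part of monocyte number in the chemokine values was not tested. In bulk blood, fewer cells of a type and less RNA per cell cannot be told apart.

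Cxcr5, which guides B cells into lymphoid follicles by binding CXCL13, was the receptor whose values were lower in every Pik3cg-/- mouse. It was measured by 3 probes. On the brightest its log2 intensity was 9.84, 9.55 and 9.08 in Pik3cg-/- mice A to C, against 9.92, 9.90 and 9.90 in WT mice A to C. All 3 WT mice were close together, and each Pik3cg-/- mouse was below them. The next probe read 8.90, 8.91 and 8.52 in Pik3cg-/- mice, against 9.12, 9.07 and 9.21 in WT mice. The third read 7.85, 7.78 and 7.49 in Pik3cg-/- mice, against 8.02, 8.18 and 8.27 in WT mice. On each probe Pik3cg-/- mouse C was the lowest of all 6 mice. In the mean of the 2 arrays the genotypes did not overlap. On technical array 2 alone they overlapped on all 3 probes, where Pik3cg-/- mouse A read 10.01, 9.04 and 8.32. WT mouse A read 9.92 on the brightest, WT mouse B 8.91 on the next and WT mouse A 8.13 on the third. The log2 fold changes were -0.44, -0.52 and -0.52 with technical array 1 only. They were -0.39, -0.19 and -0.39 with technical array 2 only. The probes read the same gene in the same RNA and are not independent of each other.

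The log2 fold changes of the Cxcr5 probes were -0.42 (SE 0.21), -0.36 (SE 0.17) and -0.45 (SE 0.17), with limma adjusted p of 0.295, 0.272 and 0.175, so none passed. The interval of the dimmest of them, -0.84 to -0.07, left out 0, and the other intervals, -0.89 to 0.06 and -0.75 to 0.03, did not. Without Pik3cg-/- mouse C the log2 fold changes were -0.21, -0.23 and -0.34. The lowest values when any single mouse was left out were -0.59, -0.42 and -0.53. B cell markers were low in the same mouse: 5 of 6 with an annotated probe were detected, none of them was called, and their median deviation from the WT mean was 0.20, -0.03 and -0.66 in Pik3cg-/- mice A to C, against -0.06, 0.08 and 0.01 in WT mice A to C. The arrays of Pik3cg-/- mouse C had the fewest detected probes of the 12 arrays, 3558 and 3696. Its median deviation was also low for neutrophil markers, at -0.42, while that for red cell markers was 0.11. The part of B cell number or of array sensitivity in the Cxcr5 values was not tested.

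**Figure D4:**
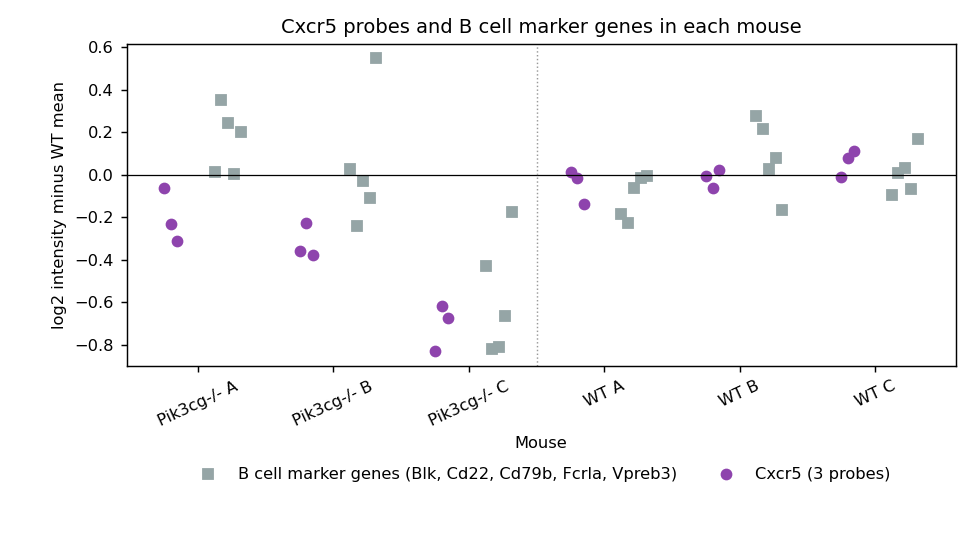
Log2 intensity of the 3 Cxcr5 probes and of 5 B cell marker genes in each mouse, minus the WT mean of the probe (vertical axis), with the Pik3cg-/- mice left of the WT mice (horizontal axis). Pik3cg-/- mouse C is the lowest mouse on all 3 Cxcr5 probes, and the median of the B cell markers there is -0.66.

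Ccr7, the receptor that brings T cells and dendritic cells to lymph nodes, and Cxcr4, the receptor that holds leukocytes in bone marrow, were detected on every array and differed little. Ccr7 stood at 8.98, 8.61 and 8.30 in Pik3cg-/- mice, against 8.72, 8.99 and 8.49 in WT mice. This gave a log2 fold change of -0.10 (95% interval -0.60 to 0.40). Cxcr4 stood at 9.01, 9.28 and 8.44 in Pik3cg-/- mice, against 9.03, 8.74 and 8.68 in WT mice. The corresponding log2 fold change was 0.09 (95% interval -0.44 to 0.63). For both receptors Pik3cg-/- mouse C was the lowest of the 6 mice. T cell markers, of which 4 of 9 with an annotated probe were detected and none called, had a median deviation of 0.45, 0.26 and -0.03 in the Pik3cg-/- mice A to C, against -0.08, 0.03 and 0.04 in the WT mice A to C.

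Among interleukins, Il1b and a probe of Il16 were detected on every array, while the other 2 Il16 probes were detected on none. Il1b, which encodes the inflammatory cytokine interleukin 1 beta made by monocytes and neutrophils, averaged 9.77 ± 0.08 in Pik3cg-/- mice and 9.74 ± 0.29 in WT mice (SD, n = 3 each). Its log2 fold change of 0.03 had a 95% interval of -0.39 to 0.46, which is 0.764 to 1.37 as a ratio of Pik3cg-/- to WT. WT mouse A was the highest at 10.06. Il16, whose product attracts CD4+ T cells, averaged 9.68 ± 0.22 in Pik3cg-/- mice and 9.95 ± 0.08 in WT mice (SD, n = 3 each). It stood at 9.86, 9.73 and 9.44 in Pik3cg-/- mice, against 9.99, 10 and 9.86 in WT mice, so that the nearest mice of the 2 genotypes were 0.00047 apart. Its log2 fold change was -0.27 (SE 0.17, limma adjusted p = 0.393), and -0.15 without Pik3cg-/- mouse C.

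Il13, a type 2 cytokine of lymphocytes and mast cells, gave nearly equal values of 7.83, 7.79 and 7.82 in Pik3cg-/- mice, against 7.69, 7.94 and 7.84 in WT mice. Its log2 fold change was -0.01 (95% interval -0.35 to 0.34), the smallest of the 20 probes. Il15 stood at 6.63, 6.86 and 6.72 in Pik3cg-/- mice, against 6.65, 7.28 and 7.39 in WT mice. WT mouse A was thus at the level of the Pik3cg-/- mice, none of whose arrays detected it, and 4 more Il15 probes were not detected in either genotype.

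The interleukin 18 system was represented by its receptor chain and by its soluble inhibitor. Il18bp encodes the binding protein that takes interleukin 18 away from its receptor. It stood at 7.79, 7.90 and 8.16 in Pik3cg-/- mice, against 7.01, 7.57 and 7.52 in WT mice. In the mean of the 2 arrays the genotypes did not overlap. On technical array 2 alone they overlapped, with Pik3cg-/- mice A and B below WT mouse C. The log2 fold change of Il18bp was 0.89 with technical array 1 only and 0.28 with technical array 2 only. With both arrays the log2 fold change was 0.58 (SE 0.20, 95% interval 0.12 to 1.04) with a limma adjusted p of 0.155, which missed the threshold. Il18r1, the ligand-binding receptor chain found on NK cells and T cells, stood at 9.04, 7.85 and 8.05 in Pik3cg-/- mice, against 7.32, 8.13 and 7.69 in WT mice. Its mean rested on Pik3cg-/- mouse A: the log2 fold change was 0.60 (95% interval -0.16 to 1.35, limma adjusted p = 0.337) with that mouse and 0.24 without it. NK cell markers, of which 3 of 8 with an annotated probe were detected and none called, had a median log2 fold change of 0.17, and 2 further Il18r1 probes were not detected.

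The other receptor chains were measured nearer to background. Il20ra, a chain of receptors for interleukins of the IL-10 family, stood at 7.62, 7.06 and 8.09 in Pik3cg-/- mice, against 7.04, 6.99 and 7.36 in WT mice. The log2 fold change was 0.46 (95% interval -0.14 to 1.06), with 0.21 when Pik3cg-/- mouse C was left out and 0.73 when Pik3cg-/- mouse B was. Il10rb, the shared second chain of the same family, stood at 7.83, 7.10 and 7.53 in Pik3cg-/- mice, against 7.73, 7.92 and 7.65 in WT mice. This gave a log2 fold change of -0.28 (95% interval -0.76 to 0.20). Pik3cg-/- mouse B was the lowest of the 6 mice, and the value was -0.09 without it and -0.45 without Pik3cg-/- mouse A. Further probes of Il20ra and Il10rb were detected on no array. Il10ra, the chain that binds interleukin 10 itself, was detected on 1 Pik3cg-/- array and 3 WT arrays, and its log2 fold change was -0.10 (95% interval -0.54 to 0.35).

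Il27ra, a receptor of T cells and NK cells for IL-27, was read by a bright and a dim probe. On the bright one it stood at 8.64, 8.65 and 8.09 in Pik3cg-/- mice, against 8.43, 8.02 and 8.06 in WT mice. Leaving out single mice gave a log2 fold change of that probe between 0.20 and 0.48, the latter without Pik3cg-/- mouse C. The log2 fold changes of both probes over all mice, 0.29 and 0.11, had the same sign and limma adjusted p of 0.467 and 0.791. Il4i1, close to background in both genotypes, had a log2 fold change of 0.03.

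**Figure D5:**
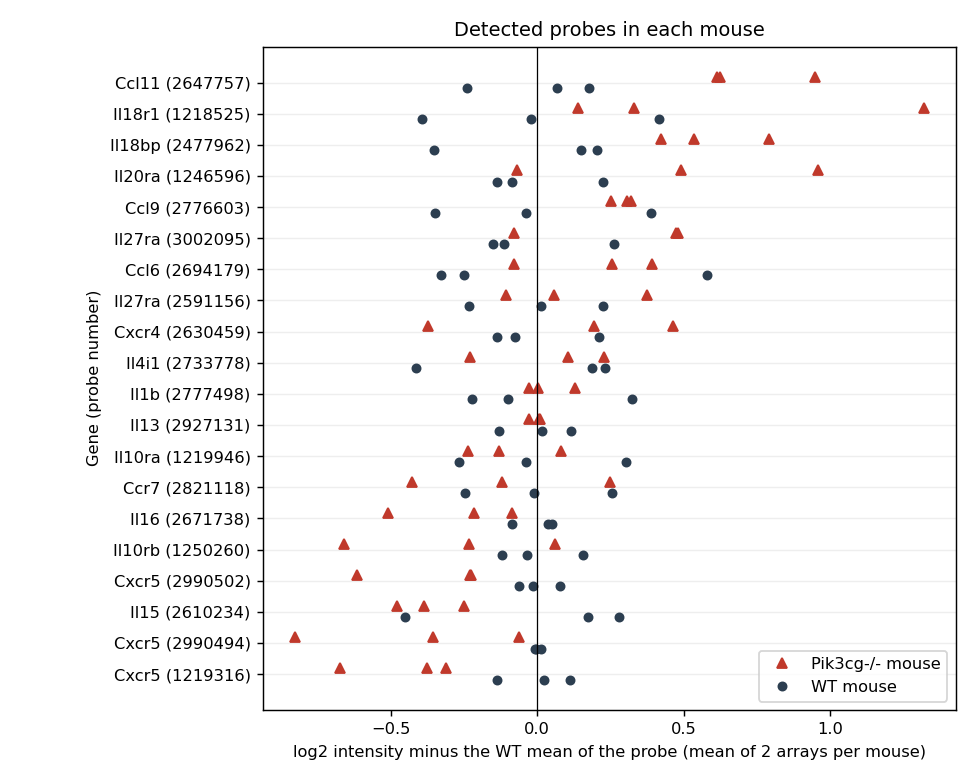
Log2 intensity of each detected probe in each mouse, minus the WT mean of the probe (horizontal axis, mean of 2 arrays), by gene and probe number (vertical axis), with Pik3cg-/- and WT mice in different colours. The points of the genotypes are apart for 6 of 20 probes, those of Ccl11, Il18bp, Il16 (by 0.00047) and the 3 of Cxcr5.

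Genes that act downstream of the receptors were counted in the same way, and listed genes without an annotated probe were left out. Of 37 genes of chemokine receptor signalling (among them G protein subunits, phosphoinositide 3-kinase subunits, arrestins and RGS proteins), 21 were detected, 0 were called higher and 1 was called lower, where 2.73% of all detected probes were called. That gene was Rgs18, a regulator of G protein signalling abundant in platelets, which was lower in Pik3cg-/- blood (limma adjusted p = 0.0295). It was detected on 1 of 6 Pik3cg-/- arrays and on all 6 WT arrays, and with Pik3cg-/- values at background the size of the difference is not given. Platelet markers, of which 9 of 10 were detected and none called, had a median deviation of -2.56, -0.83 and -0.55 in Pik3cg-/- mice A to C, against 0.04, -0.32 and 0.26 in WT mice A to C, and their part in the Rgs18 value was not tested. Of 30 genes of interleukin receptor signalling (JAK, STAT, SOCS, IRAK and NF-kappa B genes), 14 were detected and none was called in either direction, which at a share of 2.73% over the array is not a result about these genes. Detected chemokine signalling genes had a median log2 fold change of -0.07, and detected interleukin signalling genes one of -0.00.

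Relatives that the naming rule leaves out were looked at in the same way. Of 17 such genes with an annotated probe (chemokines and receptors under other symbols, chemoattractant receptors and genes set aside by the rule), 10 were detected and none was called, with a median log2 fold change of -0.27. Among them were Pf4 and Ppbp, the CXC chemokines of platelet granules, so that the absence of detected Cxcl genes does not cover the CXC chemokines as a class. The tissue label could be checked on lineage markers: 4 of 4 annotated red cell genes, 7 of 12 neutrophil genes and the lymphocyte, monocyte and platelet genes given above were detected. The genotype could not be checked on the arrays, since the signal of the brightest kept Pik3cg probe was near background in both genotypes. Its log2 fold change was 0.26, higher in Pik3cg-/- mice, and it did not pass the test (limma adjusted p = 0.469).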

How the data were processed

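Blood RNA of 3 Pik3cg-/- and 3 WT mice, hybridized to 2 Illumina MouseWG-6 v2 arrays each, gave 12 arrays, and samples were grouped by the genotype in their labels. Per the file headers, the deposited intensity values are average bead signals per probe and array, and the deposited p-value of each is its detection p. Many intensities are negative, so background had been subtracted, but arrays were not normalized to each other. The log2 values of the authors were background-subtracted, variance-stabilized and quantile normalized in lumi, and served as an alternative. The version of lumi is not given in the sources.

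In R 4.3.3 with limma 3.58.1, intensities were processed with neqc (normexp background from the detection p, offset 16, quantile normalization, log2). Of 45281 probes, 5498 were detected on 3 or more arrays (p under 0.01) and kept, the 2 arrays of a mouse were averaged, and lmFit and eBayes were run with Benjamini-Hochberg adjustment. The number of arrays and the spread between 3 mice a genotype limit precision. Intervals are limma's 95% intervals. Where a genotype was undetected on all its arrays, a bound was computed against the lowest normalized value of a detected probe. The step was tested on simulated data.

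Probes were named from the platform annotation: 34885 probes have 1 gene symbol, 18 several and 10378 none, and 4615 kept probes are named. Pathway and marker lists used the brightest kept probe of a gene. All detected genes of the families are named, per mouse for those with non-overlapping genotypes or the 10 largest differences. Genes of the pathway lists are named only where called, except Pik3cg, Pf4, Ppbp and the detected genes set aside by the naming rule. The families and lists were chosen with earlier results of these data known. The same-letter correlations of deviations from genotype means were 0.18, -0.18 and 0.18 for A, B and C. With so few mice they cannot settle whether letters pair mice, and the main fit assumed no pairing. Alternatives covered normalization, filter, technical arrays, test and single mice. Figures were drawn with matplotlib 3.10.9.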

Additional observations from a re-analysis of the deposited data

How the results depend on the processing

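No probe of these families was called under any alternative run. Of 396 combinations of probe and setting, 372 kept the sign of the log2 fold change and 24 did not, and 13 of 20 probes kept it in every setting. The lowest adjusted p was that of Ccl11 with technical array 1 only (0.0506), and its highest was 0.382. The number of all probes called, 150, became 91 without normexp correction, 307 with 75th percentile scaling (67 higher and 240 lower, against 79 and 71), 86 without a filter, 83 with technical array 1 only, 471 with the 12 arrays and mouse as a random block, 4 with the methods' analysis of variance and 259 with a trended robust prior. Without single mice it ranged between 40 and 344: it was 344, 46 and 136 without Pik3cg-/- mouse A, B or C, and 41, 40 and 43 without WT mouse A, B or C. The cause of these shifts was not tested. With the letter as a replicate block 111 probes were called and 0 of these families; 3 of 6 mice correlated best with their own letter in the other genotype. Scaling to the 75th percentile moved the median log2 fold change of these families to -0.15 and that of all probes to -0.19, and leaving out single mice put it between -0.038 (without WT mouse C) and 0.17 (without WT mouse A).

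Signs turned only for probes near 0: Il13 with cyclic loess (0.0053) and technical array 1 (0.085), Cxcr4 (-0.13), Il1b (-0.17) and Il4i1 (-0.064) with 75th percentile scaling, the dim Il27ra probe with technical array 1 (-0.16), and Ccr7 (0.032), Il10ra (0.019), Il1b (-0.015) and Il4i1 (-0.14) with technical array 2. Without single mice the log2 fold change ranged between -0.078 and 0.20 for Il1b, -0.025 and 0.22 for the dim Il27ra probe, -0.17 and 0.17 for Il4i1, -0.090 and 0.33 for Cxcr4, -0.071 and 0.052 for Il13, -0.27 and 0.065 for Ccr7, and -0.23 and 0.056 for Il10ra. A fit with the BeadChip as a block was not run, because the files used here name none. Dim signal and few mice limit these results: 175 of 195 probes gave no level. With 3 mice a genotype the intervals are wide, and that of Il18r1 ran from -0.16 to 1.35 on the log2 scale.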
